A study of Canis lupus familiaris with 8 samples.

Results

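The BTG and TOB genes encode a small family of antiproliferative proteins, named for B-cell translocation gene and transducer of ERBB2. Their shared amino-terminal domain binds the CNOT7 and CNOT8 subunits of the CCR4-NOT complex, which shortens the poly(A) tails of messenger RNAs, and the TOB proteins also bind the poly(A)-binding protein PABPC1. Forced expression of these proteins slows entry into the cell cycle in many cell types, and BTG2 is known both as an immediate-early gene, transcribed soon after a stimulus, and as a target of the tumour suppressor p53. The members were chosen by symbol, as the rows BTG1, BTG2, BTG3, TOB1 and TOB2 of the deposited count table: 5 of 37952 genes. All 5 were among the 14571 genes that passed the filter on low counts. BTG4, a relative that was not among the chosen members, had 1 read over all 8 wells.

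The libraries came from MDCK GII, an established dog kidney epithelial line, grown overnight as a monolayer on a collagen-coated elastic silicone membrane. In the stretch group, vacuum drew the membrane to an equal biaxial strain of 18%, which was held for 2 hours, and control wells had no strain applied. Each group had 4 wells, numbered 1 to 4 in the sample titles, which do not say that equal numbers belong together. They were technical quadruplicates of a single line, spread at random over separate devices, so the p-values measure the spread between wells and not between independent cultures or animals. The comparison asks which of these 5 messages differ after 2 hours of strain.

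Total counts ranged from 27047358 to 32478887 per well. The epithelial genes CDH1, EPCAM, KRT8 and KRT18 were abundant, and the 7 renal epithelial markers together held 4632 to 5206 CPM (reads scaled to a common library total) in the controls and 4887 to 5026 CPM after stretch, although CDH16, a kidney cadherin, had only 1.27 ± 0.421 CPM in control wells (SD, n = 4). The 7 fibroblast markers summed to 1.80 to 4.22 CPM in controls and 2.92 to 3.87 CPM after stretch, with COL1A2, COL3A1, DCN and LUM at 0 reads. The 5 endothelial markers summed to 1.54 to 2.30 CPM in control and 1.33 to 2.37 in stretch wells. The 5 leukocyte markers summed to 0.528 to 0.734 and 0.446 to 1.05 CPM, with PTPRC, CD3E and LYZ at 0.

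In unstretched wells BTG1 was the most abundant message of the family. Scaled by exon length so that genes can be compared, its level was 49.8 ± 2.91 CPM per kilobase (SD, n = 4). BTG3 followed at 21.6 ± 1.64 and BTG2 at 21.1 ± 1.72, and these neighbours differed by less than their spread. TOB1 stood at 18.3 ± 1.21 and TOB2 at 13.9 ± 2.25 CPM per kilobase, so that TOB1 lay below BTG2 and above TOB2 by more than the larger SD of each pair. After strain the order of the means was BTG1 (52.1 ± 2.42), BTG2 (35.1 ± 7.71), BTG3 (23.2 ± 1.94), TOB1 (19.6 ± 1.43) and TOB2 (12.1 ± 0.617). BTG2 lay below BTG3 in 3 of 4 control wells and above it in 4 of 4 stretch wells.

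BTG2 was the member with a large difference. The gene lies on chromosome 38 (668563 to 672594, plus strand, 2 exons, 2718 exonic bases), and no other annotated gene overlaps it. Control wells 1 to 4 had 50.8, 60.7, 60.7 and 57.3 CPM, and stretch wells 1 to 4 had 78.7, 123, 100 and 79.3 CPM. Every stretch well lay above every control well, with stretch wells 2 and 3 the highest of all. The raw counts behind these values ran from 1383 to 3326 reads, for which counting error alone gives a coefficient of variation of 1.73 to 2.69%. The wells varied more than that, by 8.15% among controls and 22.0% among stretch wells.

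The mean of BTG2 was 57.4 ± 4.67 CPM in controls and 95.3 ± 21.0 CPM after stretch, which is a log2 change of 0.73 ± 0.14 (SE), or 1.66-fold, with a 95% interval of 0.42 to 1.04 on the log2 scale. In the same-numbered pairs the ratio of stretch to control was 1.55, 2.02, 1.65 and 1.38 for numbers 1 to 4, above 1 in 4 of 4. Without regard to the pairing, the difference did not pass over all 14571 genes (edgeR quasi-likelihood test, adjusted p = 0.394), a fit in which 0% of all genes passed. With the replicate number as a block it passed (edgeR, log2 change 0.71 ± 0.076, adjusted p = 0.0023), as did 0.700% of all tested genes. The block was chosen from these same counts, so its smaller SE and p-value depend on a pairing that the labels do not state. Among all genes without the block, BTG2 ranked 103 by the size of its rise and 17 by its p-value, and 0.933% of genes had a larger change in either direction. In these bulk libraries, more RNA per cell and more cells with the message cannot be told apart.

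The call on BTG2 differed between models, while its log2 change ran from 0.59 to 0.85 over all settings tried. DESeq2 without a block passed it (log2 change 0.73, adjusted p = 7.3e-05, with 0.275% of all genes passing), while limma-voom did not (adjusted p = 0.165, with 0% passing). With the replicate block both did, beside 1.48% of the genes given an adjusted p in DESeq2 and 0.837% in limma-voom. A block of only 2 levels, replicates 1 and 2 against replicates 3 and 4, gave a log2 change of 0.73 but no call (edgeR, adjusted p = 0.338), where 0.398% of genes passed. Within replicates 1 and 2 alone the log2 change was 0.85 ± 0.33 (edgeR, adjusted p = 0.797), with 0.350% of genes passing. In replicates 3 and 4 by themselves it was 0.61 ± 0.10 (edgeR, adjusted p = 0.0478), with 0.172% passing.

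**Figure D1:**
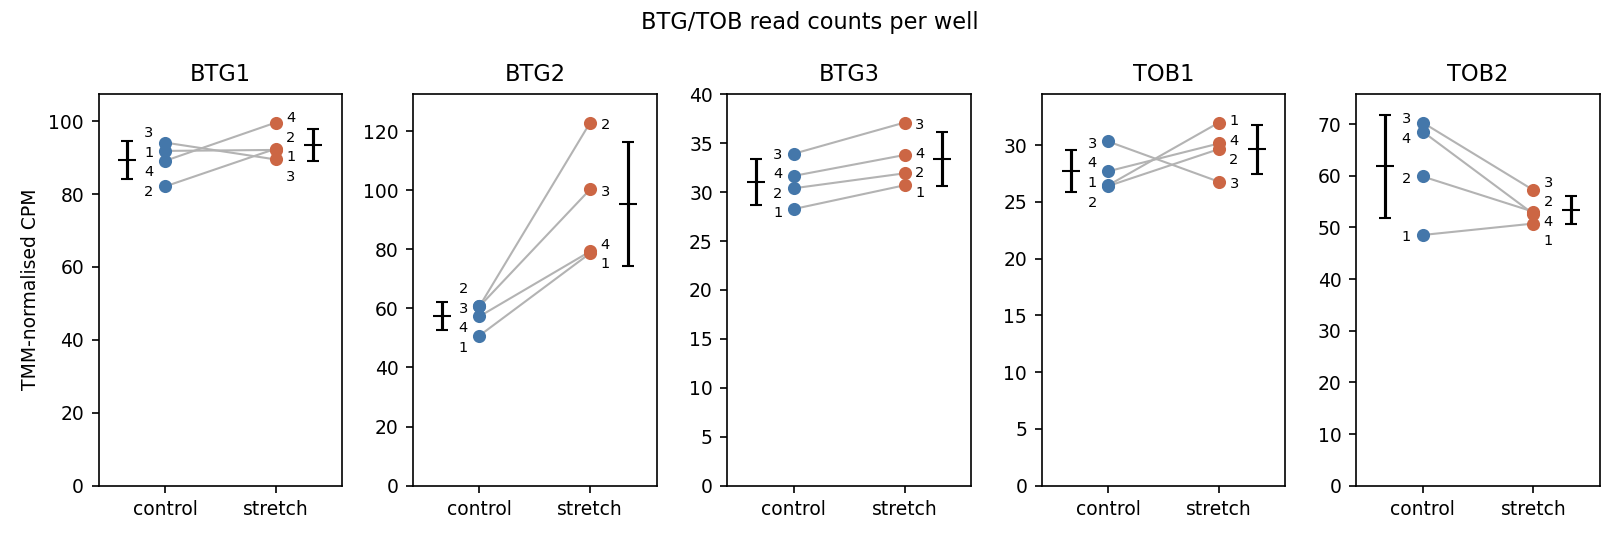
Normalised read counts (TMM-scaled CPM, linear axis from 0) of the 5 genes in each well; points are wells labelled by replicate number, grey lines join equal numbers, and bars beside the points are mean ± SD (n = 4). Only for BTG2 do all 4 stretch wells (78.7 to 123 CPM) lie above all 4 control wells (50.8 to 60.7 CPM), and for TOB2 the control wells spread widely, from 48.5 to 70.3 CPM.

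TOB2, the scarcer TOB message, had a lower mean after strain and did not pass. It lies on chromosome 10 (24774549 to 24786712, plus strand, 3 exon blocks, 4432 exonic bases). Control wells 1 to 4 had 48.5, 59.9, 70.3 and 68.6 CPM, and stretch wells 1 to 4 had 50.8, 53.05, 57.2 and 52.6 CPM. The groups overlapped because control well 1 was the lowest of all 8 wells, while the other 3 control wells lay above all 4 stretch wells. The means were 61.8 ± 9.96 and 53.4 ± 2.74 CPM (SD, n = 4), and the log2 change was -0.21 ± 0.10 (SE), with a 95% interval of -0.43 to 0.0095 (edgeR, adjusted p = 0.999). The ratio of stretch to control was 1.05 in pair 1 and 0.886, 0.814 and 0.767 in pairs 2 to 4. Without control well 1 the log2 change was -0.31 ± 0.072 (edgeR, adjusted p = 0.602). In replicates 1 and 2 it came to -0.065, and in replicates 3 and 4 to -0.33 (edgeR, adjusted p = 0.948 and 0.0779). Over all 8 wells with the replicate block, the log2 change was -0.20 ± 0.063, with a 95% interval of -0.34 to -0.065 (edgeR, adjusted p = 0.248).

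BTG1, BTG3 and TOB1 had small log2 changes, from 0.065 to 0.10, and did not pass. Single wells moved these values: BTG1 had 0.027 without control well 2 and 0.033 without stretch well 4, BTG3 had 0.062 without control well 1 and 0.049 without stretch well 3, and TOB1 had 0.058 without stretch well 1 (edgeR without the block). For BTG1, a gene known as a target of FOXO transcription factors, on chromosome 15 (32948922 to 32951509, minus strand), control wells 1 to 4 had 91.8, 82.1, 94.1 and 89.1 CPM, and stretch wells had 92.1, 92.4, 89.5 and 99.6 CPM. The groups overlapped, with control wells 2 and 4 below every stretch well and stretch well 4 above every control well. The log2 change was 0.065 ± 0.057 (SE), with a 95% interval of -0.058 to 0.19 (edgeR, adjusted p = 0.999). It was the steadiest of the 5 genes between wells, with coefficients of variation of 5.85% in control and 4.65% in stretch wells.

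BTG3, on chromosome 31 (14520447 to 14558189, minus strand), had 28.3, 30.4, 33.9 and 31.7 CPM in control wells 1 to 4 and 30.7, 31.9, 37.1 and 33.8 CPM in stretch wells 1 to 4. Each stretch well was slightly above the control well of its number, by ratios from 1.05 to 1.09, although the groups overlapped. The order of the 4 numbers was the same in both groups, with number 3 highest and number 1 lowest. The log2 change was 0.10 ± 0.078, with a 95% interval of -0.066 to 0.27 (edgeR, adjusted p = 0.999).

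TOB1, on chromosome 9 (26686955 to 26691484, minus strand), had 26.5, 26.4, 30.3 and 27.7 CPM in control wells 1 to 4 and 32.0, 29.7, 26.8 and 30.2 CPM in stretch wells 1 to 4. Stretch was higher in pairs 1, 2 and 4 and lower in pair 3, where the control well was the highest of its group and the stretch well the lowest of its group. The log2 change was 0.097 ± 0.075, with a 95% interval of -0.066 to 0.26 (edgeR, adjusted p = 0.999), with 0.22 in replicates 1 and 2 but -0.021 in replicates 3 and 4. One gene model on the opposite strand, LOC102156847, spans part of the TOB1 locus without sharing exonic bases.

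Of the 5 members, BTG2 alone passed in edgeR with the block, and 0 passed in edgeR without it, where DESeq2 passed BTG2. At an unadjusted p under 0.05 in edgeR without the block, 1 member stood beside 3.97% of all tested genes. With the block there were 2 members, BTG2 and TOB2 (edgeR, unadjusted p = 3.9e-06 and 0.0067), beside 1295 of all 14571 tested genes. BTG2 was also the single member whose groups did not overlap, as was so for 2.55% of all genes. BTG2 and BTG3 moved one way in all 4 pairs, as did 16.3% of all genes. The 95% interval of BTG2, from 0.42 to 1.04, lay above those of the other members, whose highest upper end was 0.27. The difference between members was not itself tested.

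**Figure D2:**
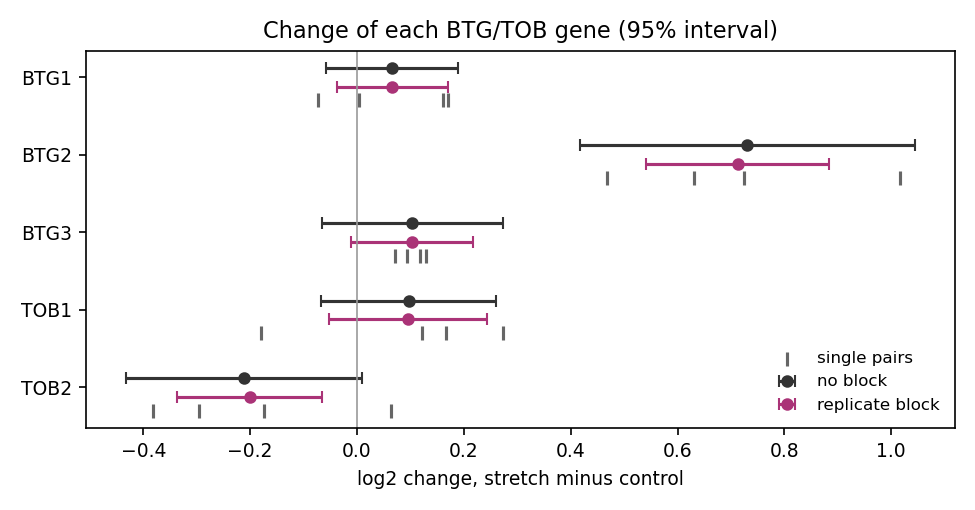
Log2 change (stretch minus control) of each gene from edgeR without the block (dark) and with the replicate block (purple), with 95% intervals; ticks below are the 4 single pairs. BTG2 sits at 0.73 and 0.71, clear of 0 in every pair, whereas BTG1, BTG3 and TOB1 sit near 0.1 or below, and TOB2 lies at -0.21 and -0.20 with 1 pair above 0.

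The share of BTG2 in the family's messages differed between the groups. Summed over the 5 genes, the length-scaled level was 125 ± 7.31 CPM per kilobase in control wells (118 to 134) and 142 ± 6.78 under stretch (134 to 150). The BTG2 share of this sum was 15.8, 18.6, 16.6 and 16.7% in control wells 1 to 4 and 21.6, 30.0, 25.8 and 20.8% in stretch wells 1 to 4. The lowest share under stretch, 20.8%, lay above the highest share in the controls, 18.6%. The ratio of BTG2 to BTG1 within a well, which no library scaling can alter, was 0.425 ± 0.0503 in control wells and 0.676 ± 0.163 in stretch wells (SD, n = 4), with no overlap (highest control 0.488, lowest stretch 0.525). The ratio of BTG2 to TOB2 was 1.53 ± 0.173 and 2.90 ± 0.607, again with no overlap (highest control 1.71, lowest stretch 2.46). TOB2 held 9.28 to 12.2% of the sum in the controls and 7.95 to 9.02% under stretch. These sums and ratios were drawn up with the single values known and carry no test.

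**Figure D3:**
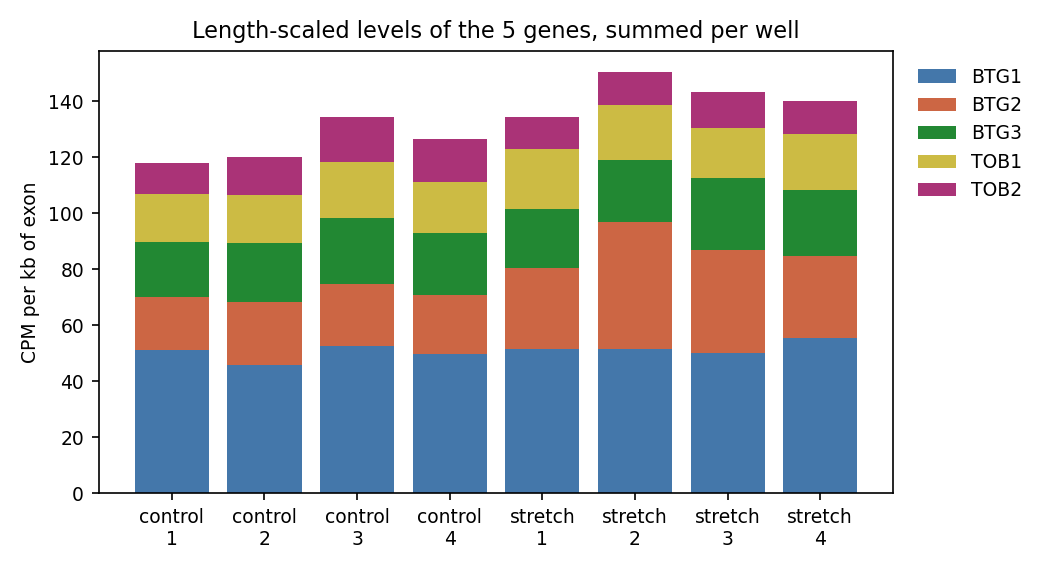
Stacked bars of the length-scaled level (CPM per kilobase of exon, axis from 0) of the 5 genes in each of the 8 wells. The BTG1 segment runs from 45.8 to 55.6 CPM per kilobase, and the BTG2 segment widens in the stretch wells to 20.8 to 30.0% of the bar.

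For the messages of the machinery through which BTG and TOB proteins act, no difference passed in edgeR. Of the 11 CCR4-NOT genes, 0 passed in edgeR with or without the block, the unblocked fit had 0 at an unadjusted p under 0.05, and the log2 changes ran from -0.11 to 0.047, with a median of -0.0026 against -0.0032 for all tested genes. CNOT7, a deadenylase subunit that binds the family directly, had 34.2 ± 1.57 CPM in control and 35.4 ± 1.35 CPM in stretch wells. Its close relative CNOT8 had 47.6 ± 0.689 and 47.7 ± 1.92 CPM, and shares exonic bases with GEMIN5 on the opposite strand. The scaffold subunit CNOT1 had log2 change -0.068 ± 0.038 (edgeR, adjusted p = 0.999), from 347 ± 5.68 to 331 ± 8.41 CPM. It was lower in 4 of 4 pairs, and its control wells (341 to 355 CPM) lay above its stretch wells (323 to 339 CPM). Of all genes, 16.3% moved one way in every pair and 2.55% had groups that did not overlap. CNOT6, a second type of deadenylase subunit, and CNOT4, a ubiquitin ligase, had log2 changes of -0.11 and -0.085. When single wells were left out of the unblocked fit, CNOT4 ran from -0.14 to -0.030. CNOT1 and CNOT6 also share exonic bases with other gene models (149 and 48 bases, against exonic lengths of 8475 and 6368). Any effect of this on their values was not tested.

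Of 13 other factors of poly(A) tails and decapping, 12 were tested, 0 passed in edgeR with or without the block, and the unblocked fit had 0 at an unadjusted p under 0.05. Their median log2 change was -0.021. The smallest unblocked p-values belonged to CPEB2, a regulator of poly(A) tail length (0.16 ± 0.077), DCP1A, a decapping cofactor (0.11 ± 0.056), and PABPC4, a poly(A)-binding protein (-0.091 ± 0.059), given as log2 change ± SE. With the block their unadjusted p-values were 0.0155, 0.0424 and 0.0472 (edgeR), and 1295 of all 14571 tested genes were under 0.05 there. When single wells were left out of the unblocked fit, CPEB2 ran from 0.10 to 0.23 and PABPC4 from -0.12 to -0.052. Among 7 partners and targets outside decay, 0 passed with or without the block, and 0 were at an unadjusted p under 0.05 in the unblocked edgeR fit. CCND1, the cyclin D1 gene that BTG2 can repress, had 25.7 ± 7.17 CPM in control and 29.5 ± 4.63 in stretch wells. This difference was smaller than either SD, although CCND1 was higher in 4 of 4 pairs, where 16.3% of all genes moved one way. With the block its log2 change was 0.22 ± 0.098 (edgeR, unadjusted p = 0.0491, adjusted p = 0.559). When single wells were left out of the unblocked fit, it ran from 0.055 to 0.37. SMAD4 and SMAD1, mediators of BMP signals that TOB proteins can restrain, had log2 changes of -0.08 and -0.055.

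BTG2 was first named TIS21, one of a set of messages induced by the phorbol ester TPA. Of the 8 other TIS genes tested, 0 passed in edgeR without the block and 2 rose with it, EGR1 and IFRD1. Of all tested genes 0% and 0.700% passed in these fits. At an unadjusted p under 0.05 the unblocked edgeR fit had 6, each with a positive log2 change, beside 3.97% of all tested genes. The median log2 change of the 8 was 0.35, against -0.0032 for all tested genes. IFRD1, known as TIS7 and a transcriptional coregulator, had means of 235 ± 13.5 and 286 ± 8.57 CPM. Its log2 change was 0.28 ± 0.048, and its adjusted p in edgeR was 0.114 unblocked and 0.0019 blocked. The zinc-finger factor EGR1, or TIS8, had means of 223 ± 23.7 and 299 ± 43.9 CPM, with 0.42 ± 0.11 as its log2 change (edgeR, adjusted p = 0.716 unblocked and 0.0017 blocked). With the block of 2 levels IFRD1 passed and EGR1 did not (edgeR, adjusted p = 0.0031 and 0.0668). With the replicate block IFRD1 did not pass when pair 1 was left out (edgeR, adjusted p = 0.058). Without a block both passed in DESeq2 (adjusted p = 0.00035 for IFRD1 and 0.0321 for EGR1), as did 0.275% of all genes. IFRD1 also passed in unblocked edgeR with no filter on low counts (adjusted p = 0.0232).

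The orphan nuclear receptor NR4A1 had the largest value of the set, 1.28 ± 0.28, from 14.0 ± 4.58 to 34.1 ± 11.004 CPM with no overlap between groups, but passed in neither edgeR fit (adjusted p = 0.567 and 0.535 without and with the block). Groups did not overlap for 2.55% of all genes. NR4A1 did pass in DESeq2 without the block (adjusted p = 0.0198) and in limma-voom with it (adjusted p = 0.0106). FOS, PTGS2 and ZFP36, singled out after their values were seen, had log2 changes of 0.70, 0.64 and 0.26. They were higher in 4 of 4 pairs, where 16.3% of all genes moved one way, and also passed in neither edgeR fit. FOS and PTGS2 passed with the block in DESeq2 (adjusted p = 0.0016 and 0.00099) and in limma-voom (adjusted p = 0.0025 and 0.0035). In blocked edgeR FOS passed when pair 2 was left out (adjusted p = 4.2e-05) and PTGS2 when pair 3 was (adjusted p = 9.9e-12). FOS encodes an AP-1 subunit, PTGS2 the inducible prostaglandin synthase, and ZFP36 a protein that, like the BTG and TOB proteins, recruits the CCR4-NOT complex. The other two TIS genes, ZFP36L1 and ZFP36L2, had log2 changes of -0.046 and -0.079.

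BTG2 is also a textbook target of p53. Of 22 other p53 targets on the list, 20 were tested, 15 of them with a positive log2 change, as had 7018 of all 14571 tested genes. The median was 0.081, against -0.0032 for all tested genes. In edgeR 1 passed with the block, PLK2, and 0 passed without it, beside 0.700% and 0% of all tested genes. At an unadjusted p under 0.05 the unblocked fit had 4, all higher, beside 3.97% of all tested genes. PLK2, a stress-responsive polo-like kinase, had means of 23.4 ± 4.19 and 34.3 ± 1.48 CPM, with 0.55 ± 0.11 as its log2 change (edgeR, adjusted p = 0.271 unblocked and 0.0083 blocked). The blocked call on PLK2 was lost without pair 1, 2 or 4 (edgeR, adjusted p = 0.0557, 0.0668 and 0.113). Without a block PLK2 passed in DESeq2 (adjusted p = 0.0019) and in edgeR with no filter on low counts (adjusted p = 0.0415). PLK3, its relative, had a log2 change of 0.48 ± 0.12 and shares exonic bases with DYNLT4 on the opposite strand. MDM2, the ligase that degrades p53, had 114 ± 7.18 CPM in control and 127 ± 4.18 in stretch wells, a log2 change of 0.16 ± 0.054. CDKN1A, the p21 cell-cycle inhibitor, singled out after its value was seen, had 109 ± 18.5 and 151 ± 33.5 CPM. PLK3, MDM2 and CDKN1A were each higher in 4 of 4 pairs, where 16.3% of all genes moved one way, and passed in neither edgeR fit. With the block, PLK3 passed in DESeq2 (adjusted p = 0.0133) and CDKN1A in limma-voom (adjusted p = 0.0171), and CDKN1A also passed in blocked edgeR without pair 1 (adjusted p = 0.0408).

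Genes linked to FOXO factors and quiescence, a setting in which BTG1 is known, numbered 14, all tested. Of these 10 had a negative log2 change, as had 7553 of all 14571 tested genes, and the median was -0.083, against -0.0032 for all tested genes. In edgeR 1 passed with the block, CDKN1B, and 0 passed without it, beside 0.700% and 0% of all tested genes. At an unadjusted p under 0.05 the unblocked fit had 3, of which 2 were lower and 1 higher, beside 3.97% of all tested genes. CDKN1B, the p27 cell-cycle inhibitor, had means of 37.3 ± 2.44 and 30.1 ± 1.80 CPM, with -0.31 ± 0.070 as its log2 change (edgeR, adjusted p = 0.422 unblocked and 0.0081 blocked), and shares exonic bases with LOC119866422 on the opposite strand. The blocked call on CDKN1B was lost without pair 1 or 2 (edgeR, adjusted p = 0.0961 and 0.0594). Without a block CDKN1B passed in DESeq2 (adjusted p = 0.0225). CDKN2C, the p18 inhibitor, had 23.9 ± 4.03 and 19.2 ± 2.89 CPM and was lower in 4 of 4 pairs. FOXO1 itself had 17.4 ± 1.17 and 20.6 ± 2.76 CPM and was higher in 4 of 4, where 16.3% of all genes moved one way. Neither passed in edgeR with or without the block, although CDKN2C did with the block when pair 3 was left out (edgeR, adjusted p = 0.0239).

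**Figure D4:**
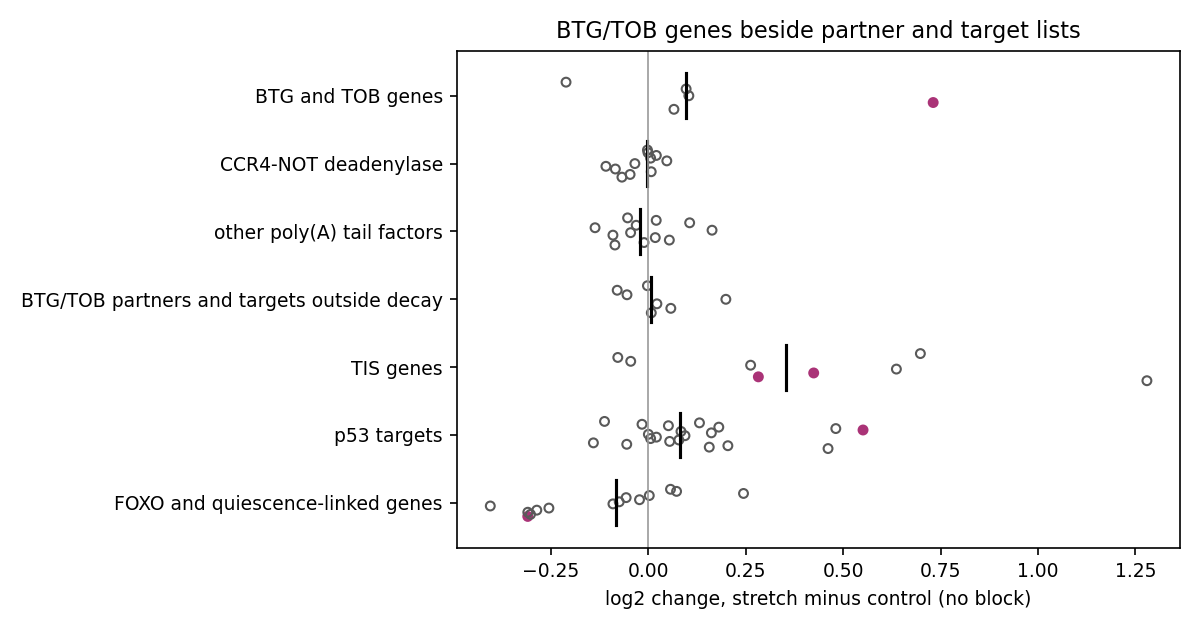
Log2 change (stretch minus control, edgeR without the block) of the BTG and TOB genes and of 6 lists of partner and target genes; each circle is a gene, filled when its adjusted p is under 0.05 with the replicate block, and the black bar is the median of the list. The CCR4-NOT genes cluster between -0.11 and 0.047, BTG2 stands at 0.73 away from its relatives, and the TIS genes have a median of 0.35.

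The genes most like BTG2 across the wells were ranked by the Pearson correlation of log2 CPM over the 8 wells, which includes the difference between groups. The 5 highest of 14570 other genes were SERTAD1 (r = 0.965), LOC119870922 (0.948), HBEGF (0.942), LIF (0.942) and ARL16 (0.929), given as a description with no test, since they were picked as the highest. SERTAD1 encodes a coregulator of E2F-dependent transcription, HBEGF a ligand of the EGF receptor, and LIF a cytokine of the interleukin-6 family. These 3 had log2 changes of 0.37, 0.80 and 0.73 and passed in the blocked edgeR fit (adjusted p = 0.0286, 1.8e-05 and 0.0147), and LOC119870922 and ARL16 did not. With the block of 2 levels HBEGF did not pass (edgeR, adjusted p = 0.0668). Without a block HBEGF and LIF passed in DESeq2 (adjusted p = 4.2e-05 and 0.0090), and SERTAD1 did not (adjusted p = 0.0628). The blocked edgeR call was lost for SERTAD1 without pair 1 or 2 (adjusted p = 0.186 and 0.209), and for LIF without the same pairs (adjusted p = 0.142 and 0.0806). SERTAD1 also did not pass in blocked limma-voom (adjusted p = 0.0536). Like BTG2, they had their highest values in stretch wells 2 and 3. In all 4 control wells, BTG2 and these 5 genes lay below their own mean over the 8 wells.

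The 5 genes most like TOB2 were CAMSAP1 (r = 0.981), IER5L (0.980), GLYR1 (0.972), GAS1 (0.967) and LAMA5 (0.960). CAMSAP1 encodes a binder of microtubule minus ends, GAS1 a membrane protein known from growth-arrested cells, and LAMA5 a laminin chain of basement membranes. None of the 5 passed with or without the block, and, like TOB2, each was low in control well 1 and highest in control wells 3 and 4. LAMA5, for instance, ran from 415 to 573 CPM among control wells but from 434 to 475 CPM among stretch wells. No gene could be shared between the BTG2 and TOB2 groups at such correlations, since BTG2 and TOB2 themselves had r = -0.295 over the 8 wells. For the other members the 5 highest correlations ran from 0.919 to 0.935 (BTG1), 0.980 to 0.989 (BTG3) and 0.894 to 0.924 (TOB1).

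**Figure D5:**
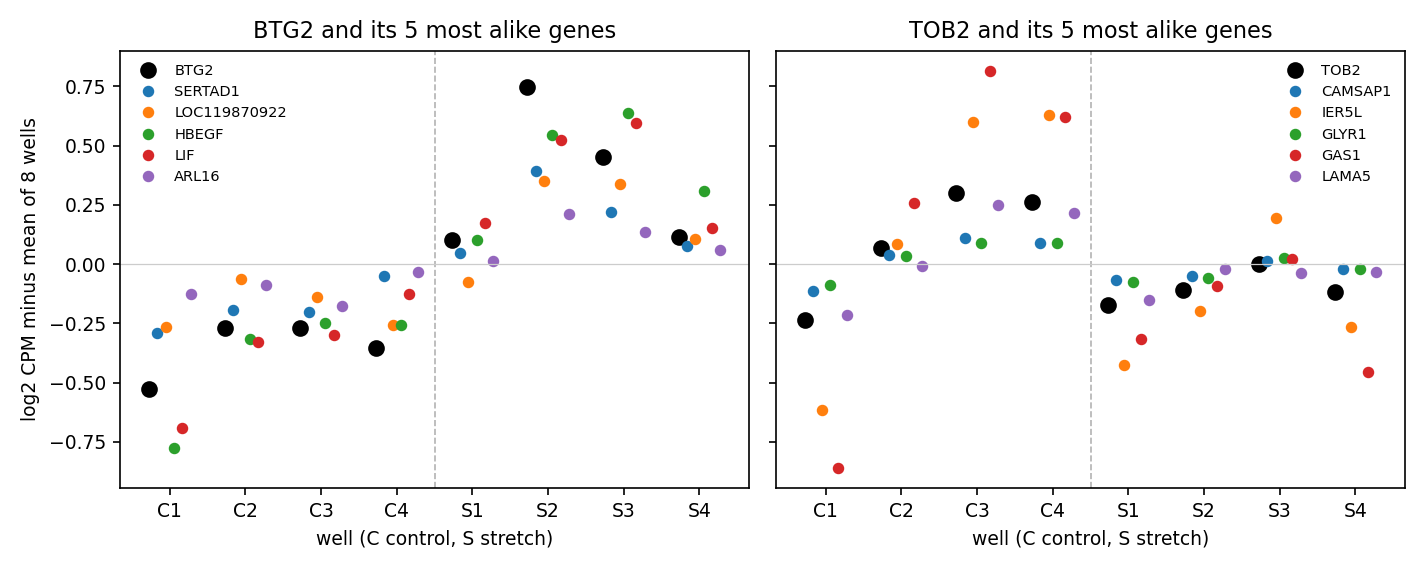
Log2 CPM minus the mean of the gene over 8 wells for BTG2 (left) and TOB2 (right), in black, with the 5 genes most like each in colour; C1 to C4 are control and S1 to S4 stretch wells, with points spread sideways for legibility. On the left the points rise from the control to the stretch wells, highest in stretch wells 2 and 3, and on the right they are lowest in control well 1 and highest in control wells 3 and 4.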

How the data were processed

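RNA from 4 control and 4 stretch wells was sequenced from polyA-selected stranded libraries, per the labels. The authors deposited raw counts, 1 column per well, made by counting reads on exons. The submitters' processing notes name FastQC 0.11.8, Trim Galore 0.6.5, STAR 2.7.3a, Subread and featureCounts. Genome build, strand setting and treatment of multi-mapping reads are not given in the sources used here. Coordinates and exon length (an other kind of value, in bases, per the file headers) are those of the deposited table; 37291 of its 37952 symbols, and all 5 members, matched the RefSeq gene table of assembly UU_Cfam_GSD_1.0 at identical positions. No sequences were used.

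Counts were tested in R 4.3.3 with edgeR 4.0.16 (TMM, filterByExpr with a minimum count of 10 and a minimum total of 15, robust glmQLFit, glmQLFTest, two-sided, Benjamini-Hochberg over all 14571 tested genes, threshold 0.05), with an intercept and a stretch term. Intervals are the log2 change ± its SE times the t quantile for 95%. Log2 CPM used a prior count of 2. The fits were also run on simulated counts that held an effect shared by equal replicate numbers. That run assumed the pairing and so is no evidence for it.

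Wells of a group, compared each with each, differed beyond sampling noise (chi-square per degree of freedom 5.56 to 26.8), so none repeated the library of another. This is no check of the quality of a well. All 8 were kept. Same-numbered wells deviated together from their group means (r from 0.108 to 0.328 across genes, mean 0.199), which is where the pairing comes from. Wells of unlike numbers had a mean r of -0.066, which centring on the group means makes negative. Only 1 of the 4 control wells correlated best with the stretch well of its own number. The pairing is thus weakly supported, and the labels do not state it. Members, lists and tests were chosen with earlier results of these data known. The text names the 5 members, for each list the genes that passed with or without the block and the 3 with the smallest p, and the 5 genes most correlated with a member, besides those said to be singled out. CNOT7 and CNOT8 were added for their role, and ZFP36L1 and ZFP36L2 to complete their list. Alternatives were DESeq2 1.42.0, limma-voom (limma 3.58.1), other scalings and filters, blocks, and leaving out wells. Figures used matplotlib 3.10.9 under Python 3.11.15.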

Additional observations from a re-analysis of the deposited data

Results flagged for a closer look

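For each named gene and group, the highest or lowest of the 4 wells was compared with its neighbours by Dixon's test. It stood apart in 2 of 78 sets of wells, against about 3.9 such sets that chance gives, and neither set belonged to a BTG or TOB gene. For HBEGF, among the genes most like BTG2, control well 1 had 15.9 CPM and the other control wells 21.9 to 23.0. For LAMA5, among the genes most like TOB2, stretch well 1 had 434 CPM and the other stretch wells 470 to 475.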

How the results depend on the processing

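Without a block, edgeR passed 0 genes (579 at an unadjusted p under 0.05); DESeq2 passed 40, limma-voom 0, edgeR with no filter on low counts 11, and 0 to 12 passed when single wells were left out (12 without control well 3). The replicate block gave 102 genes, 145 with DESeq2 and 122 with limma-voom, and 43 to 187 when single pairs were left out (43 without pair 1, 65 without pair 2, 187 without pair 3, 74 without pair 4). The block of 2 levels gave 58, replicates 1 and 2 alone 51, and replicates 3 and 4 alone 25. Of the 5 members, 1 (BTG2) passed with DESeq2, with the replicate block under edgeR, DESeq2 and limma-voom, without each pair in turn (1 in every case), and in replicates 3 and 4 alone; 0 passed when single wells were left out without the block.

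The BTG2 log2 change was 0.73 in DESeq2, 0.71 with the replicate block in edgeR and in DESeq2, 0.72 with the block in limma-voom, 0.61 in replicates 3 and 4 alone, 0.59 to 0.81 without single wells, and 0.74, 0.61, 0.71 and 0.79 with the block and without pairs 1 to 4 in turn. The block changed no other call among the members; TOB2 had -0.20 with it (edgeR, adjusted p = 0.248, and 0.0779 at the lowest over all settings). Reversed signs were TOB1 in replicates 3 and 4 alone (-0.021), SMAD1, CNOT8 and LAMA5 in replicates 1 and 2 alone (0.0041, -0.033 and 0.024), and CNOT8 on leaving out single wells (-0.023 to 0.025) or, with the block, single pairs (-0.027 to 0.020); none of these was called. For the 34 other named genes, 741 of 816 recomputed values kept sign and side of the threshold and 70 moved past it. The 95% intervals of BTG1, BTG3 and TOB1 had upper ends of 0.19, 0.27 and 0.26 on the log2 scale.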
